A study of Mus musculus with 2 samples.

Results

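Choroid plexus epithelial cells were chosen by their measured counts of 4 genes in single-cell RNA libraries of mouse hippocampus. A barcode counted as such a cell if it had at least 500 detected genes, at most 15% mitochondrial counts and at least 1 count for 3 or more of Kcne2, Folr1, Clic6 and Kl. The rule found 295 cells among the 14560 barcodes that passed both filters, 55 of 6435 in the WT library and 240 of 8125 in the 60TM library. WT mice were C57BL6/J. 60TM mice were of a GFAP-hGFAP line on the C57BL6/J background, in which a human GFAP transgene under a promoter active in astrocytes gives mice that model Alexander disease, which affects those cells. All mice were 7 weeks old. Hippocampi were taken after perfusion, digested with papain and loaded on the Chromium system with 3' chemistry, version 3. Each genotype has 1 library that pools 3 mice, and barcodes are not tied to mice here, so there are no replicates and no difference between genotypes was tested. Counts are of unique molecular identifiers (UMIs), which mark single captured RNA molecules. A level is the UMIs of a gene summed over the cells of a library, relative to their summed total, in CPM. Each ratio is 60TM over WT over all 55 and 240 cells unless stated otherwise. The values in brackets after it are its exact 95% interval, which covers counting error only and not the spread between mice.

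The choroid plexus is a folded epithelium that hangs into the brain ventricles and secretes cerebrospinal fluid. Its cells move sodium, chloride and bicarbonate into the fluid, let water follow, and carry vitamins, thyroid hormone and other solutes from the blood. They release proteins such as transthyretin, and tight junctions between them form the barrier between blood and cerebrospinal fluid. The plexus of the lateral ventricle lies along the hippocampus, and the labels name hippocampus alone as the tissue.

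The 4 genes of the rule lie on 3 chromosomes of the mouse build GRCm38. Kcne2, a potassium channel subunit, spans chr16:92292389-92298129, and Clic6, a member of the chloride intracellular channel family, lies on the same chromosome at chr16:92485736-92541243. Folr1, a folate receptor, spans chr7:101858331-101870788, and Kl, which encodes klotho, spans chr5:150952607-150993817. Upstream sequence from RefSeq (GRCm38.p6) is shown for the 2 rule genes with an entry in the table, because these genes define the cells. It covers the 250 bases before each start, Kcne2 at chr16:92292139-92292388 and Kl at chr5:150952357-150952606, both on the plus strand. They were searched on both strands for TAATCC, the core of the site that Otx2 binds, a homeodomain factor of the choroid plexus. Sequence is also shown for 2 nuclear genes of oxidative phosphorylation, a group described later, with the letters GCATGCG from the site of NRF1, a regulator of such genes. These are 227 bases upstream of Cox6a1 at chr5:115348982-115349208 and 30 bases around the match of Atp5k at chr5:108434429-108434458, both on the minus strand. Capitals mark the matched letters, where matches on the 2 strands overlap.

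Kcne2: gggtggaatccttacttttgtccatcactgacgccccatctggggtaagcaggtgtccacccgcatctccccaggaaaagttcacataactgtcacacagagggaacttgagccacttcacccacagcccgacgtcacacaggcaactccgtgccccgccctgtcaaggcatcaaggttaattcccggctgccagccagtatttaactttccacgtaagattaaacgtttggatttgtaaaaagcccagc

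Kl: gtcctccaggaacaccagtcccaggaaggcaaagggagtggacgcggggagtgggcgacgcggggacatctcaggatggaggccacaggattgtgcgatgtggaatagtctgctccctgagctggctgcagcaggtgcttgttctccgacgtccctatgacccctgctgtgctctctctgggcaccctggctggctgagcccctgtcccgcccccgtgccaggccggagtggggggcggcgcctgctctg

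Cox6a1: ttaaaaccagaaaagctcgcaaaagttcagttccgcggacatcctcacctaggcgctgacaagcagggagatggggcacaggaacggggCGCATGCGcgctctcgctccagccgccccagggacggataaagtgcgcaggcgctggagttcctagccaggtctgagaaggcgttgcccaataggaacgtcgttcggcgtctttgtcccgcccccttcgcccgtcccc

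Atp5k: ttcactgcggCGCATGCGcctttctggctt

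Neither strand of the Kcne2 and Kl windows held TAATCC. Over the 250 bases before each start, these letters were present in 6.25% of all 32851 windows. Among the choroid plexus marker genes, 6 had an entry, and 1 of their 12 windows held the letters, that of Otx2 itself. GCATGCG was in 6 of 32 windows of oxidative phosphorylation genes (18.8%) and in 3.02% of all windows. A match is a description of the letters and no sign of binding.

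The chosen cells matched their label by markers that the rule did not use. Ttr, which encodes transthyretin, made up a median of 28.6% of UMIs in the 46 WT cells with all 4 rule genes and 26.4% in the 199 such cells of 60TM. Enpp2, which encodes the secreted enzyme autotaxin, had a UMI in 55 of 55 and 240 of 240 members. Kcnj13, a potassium channel, was seen in 98.2% of WT and 96.2% of 60TM members, against 1.19% and 2.07% of microglia, which should lack it. Median depth was 15966 and 19087.5 UMIs in members and 5761 and 6862 in microglia.

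Markers of ependymal cells, the ciliated lining of the same ventricles, were low in the members. The 6 markers summed to 20.9 CPM in WT and 23.3 CPM in 60TM. Dnah11, a dynein heavy chain among them, was seen in 16.4% of WT and 15% of 60TM members, at 12.4 and 8.54 CPM. Tmem212 had 2 UMIs in each library's members, Ccdc153 had 1 in WT and 3 in 60TM, and Sntn had 0 in both. In 26 WT and 14 60TM ependymal cells picked by these 6 markers, Ttr was at 52.1 and 465 CPM. Tmem212 was at 1571 and 1746 CPM there, but it is 1 of the 6 markers, so a high level follows from the choice of cells.

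Depth overlapped between the members of both libraries. The WT members held 1052042 UMIs, with a median of 15966 per cell, from 1679 to 43426. The 60TM members held 5617536 UMIs, with a median of 19087.5, from 1311 to 132823. The median share of mitochondrial UMIs was 4.19% and 4.43%. The libraries shared 20 barcode sequences, and 0 of these were members.

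Some members carried RNA of another cell type. A barcode was called mixed where at least 3 of 6 markers of another class were seen and their sum reached 10% of that class's median level. By this definition 4 of 55 WT members (7.27%) and 26 of 240 60TM members (10.8%) were mixed, leaving 51 and 214. In 60TM, 10 were mixed with microglia, 7 with astrocytes, 4 with oligodendrocytes, 4 with neurons, 2 with endothelial cells and 1 with mural cells, and a barcode can fall under more than 1 class. Over all members the 6 microglia markers summed to 47.5 CPM in WT and 326 in 60TM, and to 30.2 and 63.6 without mixed barcodes. The 6 neuron markers summed to 9.51 and 294 CPM, and to 9.38 and 11.9 without mixed barcodes. The 6 oligodendrocyte markers summed to 1009 and 1372 CPM, and to 99 and 128 without mixed barcodes. Results are therefore given for all members and without mixed barcodes, an alternative chosen after the data were seen.

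**Figure D1:**
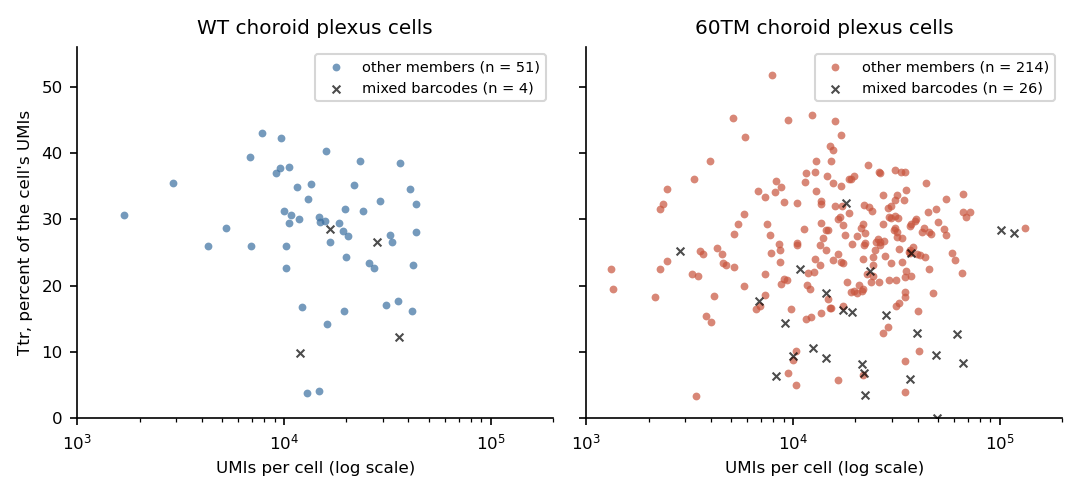
Share of a cell's UMIs that come from Ttr (vertical axis, percent) against UMIs per cell (horizontal axis, log scale) for choroid plexus cells of the WT library (left) and the 60TM library (right). Each point is 1 cell and crosses are mixed barcodes; without these the Ttr share ran from 3.83% to 43% in WT and from 3.4% to 51.8% in 60TM.

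The Ttr share varied widely from cell to cell and overlapped between genotypes. Without mixed barcodes its median was 29.7% in the 51 WT cells, with an interquartile range of 25.2% to 34.7%. In the 214 cells of 60TM it was 26.5%, with 21.5% to 31.7%. Summed over all members, Ttr took 26.9% of UMIs in WT and 25.2% in 60TM, a ratio of 0.936 (0.932 to 0.939).

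Choroid plexus cells were a larger share of the 60TM library. They made up 0.855% of passing WT barcodes (exact binomial interval 0.645% to 1.11%) and 2.95% of passing 60TM barcodes (2.6% to 3.35%), a ratio of 3.46 (2.57 to 4.72). The sources do not say how much ventricular tissue went into each pool, and dissection and genotype cannot be told apart with 1 library each. A UMI of 10 Hox transcripts, which mark hindbrain position, was found in 1 WT and 1 60TM member. Otx1, a gene of forebrain and midbrain position, was seen in 7.27% and 16.2% of members and in 0.817% and 1.5% of microglia. Of 16 position genes 5 reached 20 UMIs, and 2 of these were past 1.5-fold upward and 0 downward.

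The edge of the group differed between libraries. Just inside it, the 9 WT and 41 60TM cells with 3 rule genes had median Ttr shares of 30.6% and 22.5%. Just outside it, 3 of the 16 WT barcodes with 2 rule genes had a Ttr share of 5% or more, and the median was 0.0033%. Of the 27 such 60TM barcodes, 20 did, with a median of 19.7%.

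The levels of the rule genes chose the cells and are given as a description. Kl stood at 440.1 CPM in WT against 607 CPM in 60TM (ratio 1.38, 1.25 to 1.52), and its level per cell, in UMIs per 10000, had a median of 4.21 (0 to 12.2) in WT and 5.49 (0 to 27.4) in 60TM. Folr1 stood at 851 and 1009 CPM (ratio 1.19, 1.11 to 1.27). Kcne2 stood at 174 and 203 CPM (ratio 1.17, 0.999 to 1.37) and Clic6 at 367 and 355 CPM (ratio 0.969, 0.868 to 1.08). The cells of both libraries overlapped for Kl, and the interval of Clic6 included 1.

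Gfap, the gene behind the transgene, was scarce in these cells. The WT members held 4 UMIs, in 1 cell, and the 60TM members 129 UMIs in 32 cells. Without mixed barcodes Gfap had 0 UMIs in WT and 30 in 60TM, at least 2.0-fold higher when WT is set to the floor of 3 UMIs. In all other cells it stood at 67.7 and 413 CPM. Thinned to 2000 UMIs per cell, 1.85% of WT and 2.1% of 60TM members had a Gfap UMI, beside 1.27% and 4.55% of microglia, which should lack it. The shares before thinning were 1.82% and 13.3% in members and 3.64% and 10.5% in microglia. Whether Gfap in the members is background RNA was not tested. The sources do not say if reads of the human transgene count toward the mouse gene.

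The choice of genes bears on how many passed 2-fold in each direction. Of 5712 genes with 100 or more UMIs over all members, 349 (6.11%) passed 2-fold upward and 13 (0.228%) downward. Without mixed barcodes it was 159 (3.28%) and 8 (0.165%) of 4850. Of the 349 genes, 108 also passed 2-fold upward without mixed barcodes and 188 had under 100 UMIs there. The 100 UMIs were summed over both libraries, of which 60TM members hold 5617536 UMIs and WT members 1052042, so a gene high in 60TM could pass the minimum through 60TM alone. Of 5471 genes with a mean of at least 15 CPM over both libraries, weighted equally, 215 passed upward and 21 downward. The median log2 ratio over the genes with 100 or more UMIs, of CPM + 5 as in every log2 ratio here, was 0.09 and 0.06. The number of genes past 2-fold upward was 132 without barcodes that scored as doublets and 200 when 2 rule genes were enough, where 548 passed downward.

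The highest ratios over all members belonged mostly to genes of other cell types. Meg3 and Snhg11, transcripts of neurons, had 1 UMI each in WT and 1426 and 624 in 60TM, 60.7% and 59.6% of them in 1 cell. Flt1, a receptor of vascular growth factors, and Cldn5, a claudin of brain endothelium, had 0 UMIs in WT and 162 and 135 in 60TM, 65.4% and 72.6% in 1 cell. Cx3cr1, the fractalkine receptor of microglia, had 3 and 246 UMIs over all members (ratio 15.4, 5.19 to 75) and 2 and 30 without mixed barcodes. There Flt1, Cldn5, Grin2b, Ctla2a, Auts2 and Pcdh17 had 0 UMIs in WT and from 2 to 13 in 60TM.

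Mxra7, which encodes a membrane protein, kept its ratio. It had 13 UMIs in 11 WT cells and 714 UMIs in 180 cells of 60TM, or 12.4 and 127 CPM (ratio 10.3, 5.98 to 19.4). Without mixed barcodes the ratio was 9.32 (5.41 to 17.6). There its level per cell had a median of 0 (0 to 1.04) in WT and 0.936 (0 to 5.26) in 60TM, in UMIs per 10000. Most WT cells held no UMI and most 60TM cells held at least 1. The rest of the library was in the same direction, with 14.3 and 71.6 CPM in WT and 60TM. The gene spans chr11:116803062-116828046 (GRCm38).

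Without mixed barcodes, the other genes with the highest ratios had varied roles. Lars2, a mitochondrial leucyl-tRNA synthetase, had 22 UMIs in WT and 548 in 60TM (ratio 4.98, 3.26 to 8.02), and it was seen in 23.9% and 42.5% of microglia. Apoc1, an apolipoprotein gene, held 13 and 253 UMIs (ratio 3.89, 2.24 to 7.41), 53.8% and 18.6% of them in 1 cell. Dync2h1, the motor of transport within cilia, had 4 and 118 UMIs (ratio 5.9, 2.24 to 22), and Furin, a protease that trims secreted precursors, 5 and 112 (ratio 4.48, 1.86 to 14.1). Hnrnpa0, Ankrd12, Irf2bpl, Prkacb, Dst and Zbtb20 had ratios from 2.3 to 6.47. Malat1, a nuclear long RNA, had a ratio of 2.22 (2.04 to 2.42), and 99.1% and 98.4% of microglia held it. Over all members its ratio was 2.85, and 2.3 with free RNA subtracted. With 2 rule genes enough, the ratios of Dync2h1, Irf2bpl, Dst and Zbtb20 were below 1.

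Among the lowest genes, Nefh, Rlbp1 and Pcp4 had like ratios with and without mixed barcodes. Nefh, a neurofilament gene, had 62 UMIs in WT and 92 in 60TM (ratio 0.278, 0.199 to 0.39, and 0.287 without mixed barcodes). Rlbp1, which encodes a retinaldehyde-binding protein, had a ratio of 0.365 (0.248 to 0.546) over all members and 0.365 without mixed barcodes. Bhmt, which remethylates homocysteine, stood at 0.441 (0.323 to 0.609). Pcp4, a calmodulin regulator, stood at 1001 CPM in WT against 583 CPM in 60TM (ratio 0.583, 0.543 to 0.625), with per-cell medians of 7.69 (0 to 50.6) in WT and 4.83 (0 to 36.8) in 60TM UMIs per 10000 without mixed barcodes, and the cells overlapped. Ermn and Ppp1r14a, genes of oligodendrocytes, stood at 0.407 and 0.402 over all members, and without mixed barcodes both intervals included 1 (0.318 to 1.5 and 0.277 to 3.47). Ehd1, Bex4 and Phpt1 had ratios of 0.41, 0.458 and 0.488, and Mif, a cytokine gene, 0.619.

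**Figure D2:**
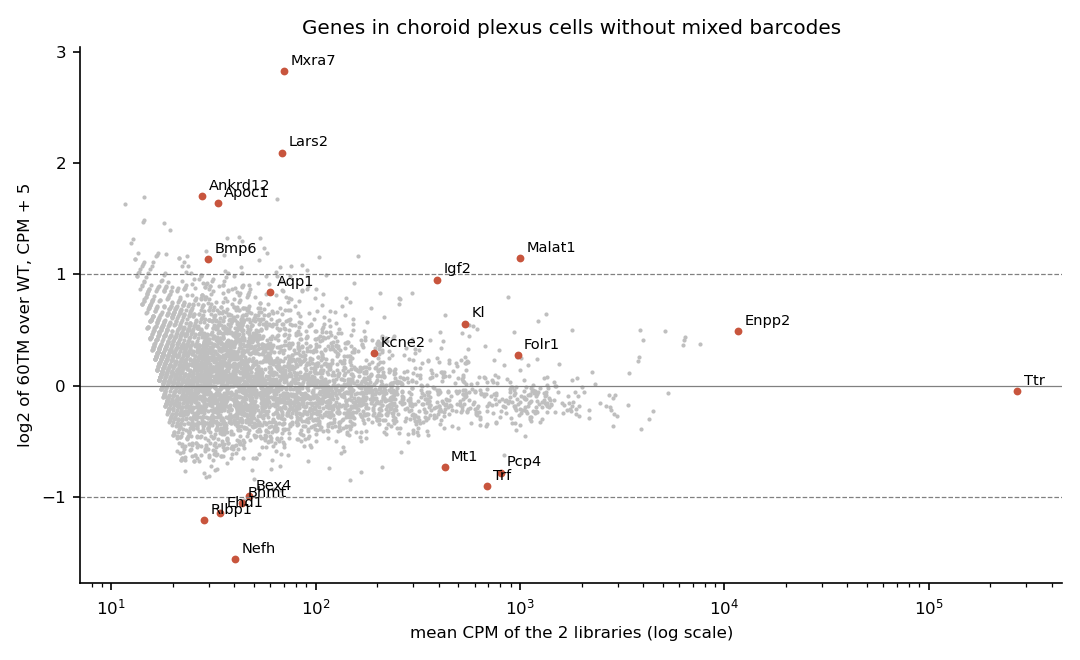
log2 ratio of 60TM over WT (vertical axis, CPM + 5) against the mean CPM of the 2 libraries (horizontal axis, log scale) for the 4850 genes with at least 100 UMIs in choroid plexus cells without mixed barcodes. Each point is a gene, labelled genes are red and dashed lines mark 2-fold; Mxra7 lies highest at 2.82 and Nefh lowest at −1.56.

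Genes of fluid secretion included 8 past 1.5-fold upward in 60TM and 0 downward among 26 measured ion and water transport genes, where measured means at least 20 UMIs. Their median log2 ratio was 0.35. Over all 10564 genes with that many UMIs, 28.2% passed upward and 4.95% downward, with a median of 0.15, so the share of the list past 1.5-fold was near the background. For the list, without mixed barcodes the counts were 9 and 0 of 24 and the median 0.39. The background there was 22.5% and 6.06%, with a median of 0.10. These backgrounds also apply to the other lists.

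Slc12a2, the sodium, potassium and chloride cotransporter NKCC1, stood at 210.1 CPM in WT against 338 CPM in 60TM (ratio 1.61, 1.4 to 1.86). Its level per cell had a median of 1.28 (0 to 12.2) in WT and 2.26 (0 to 16.5) in 60TM, in UMIs per 10000. In all other cells it stood at 422 and 277 CPM, the opposite direction. Atp1b1, a subunit of the sodium pump, had a ratio of 1.4 (1.28 to 1.55). Aqp1, the apical water channel, stood at 43.7 and 74.4 CPM (ratio 1.7, 1.25 to 2.36), and Slc4a5, a sodium bicarbonate cotransporter, at 72.2 and 121 CPM (ratio 1.68, 1.32 to 2.16). Both are apical routes of the epithelium. Trpv4, a cation channel that responds to osmolarity, had a ratio of 1.97 (1.34 to 3.02), and Wnk1, a kinase upstream of NKCC1, 1.87 (1.35 to 2.65). Kcnj13, Car2 (a carbonic anhydrase) and Fxyd1 (a regulator of the pump) had ratios of 0.94, 0.963 and 0.995.

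Carriers of nutrients and hormones had 8 of 29 measured genes past 1.5-fold upward and 1 downward, with a median log2 ratio of 0.26, and without mixed barcodes the counts were 7 and 1 of 29 and the median 0.17. Slc23a2, a vitamin C transporter, had a ratio of 1.53 (1.15 to 2.06), and Abca4, a retinoid transporter, 1.51 (1.15 to 2.02). Abcg2, an efflux pump, had 2 UMIs in WT and 88 in 60TM (ratio 8.24, 2.21 to 69.1). Slco1c1, which carries thyroxine, stood at 1.1 (0.964 to 1.26). Slc15a2, a peptide transporter, was the member past 1.5-fold downward, at 0.615 (0.373 to 1.06), and 0.54 (0.318 to 0.953) without mixed barcodes.

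Secreted proteins had 3 of 29 measured genes past 1.5-fold upward and 2 downward, with a median log2 ratio of 0.08, and without mixed barcodes the counts were 5 and 2 of 29 and the median 0.10. Igf2, an insulin-like growth factor, stood at 265 CPM in WT against 472 CPM in 60TM (ratio 1.78, 1.57 to 2.02). Its level per cell had a median of 2.01 (0 to 17.9) in WT and 3.86 (0 to 19.5) in 60TM, in UMIs per 10000, and the cells of both libraries overlapped. A UMI of Igf2 was in 90.9% and 93.3% of members and in 0.899% and 1.87% of microglia. Bmp6, a bone morphogenetic protein, held 20 and 224 UMIs (ratio 2.1, 1.33 to 3.5, and 0.94 when 2 rule genes were enough). Cd59a, which blocks complement, stood at 183 and 304 CPM (ratio 1.66, 1.43 to 1.94). Enpp2 stood at 9564 and 12843 CPM (ratio 1.34, 1.32 to 1.37), and at 759 and 395 CPM in all other cells. Cst3, which encodes cystatin C, had a ratio of 1.44 (1.38 to 1.5) over all members and 1.09 (1.04 to 1.14) without mixed barcodes.

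Trf, which encodes transferrin, was lower in 60TM members. It stood at 935 and 517 CPM in WT and 60TM (ratio 0.553, 0.514 to 0.595), and its level per cell had a median of 5.96 (0 to 31.1) in WT and 2.74 (0 to 49.3) in 60TM, in UMIs per 10000. All other cells were in the same direction, at 1976 and 1375 CPM (ratio 0.696). Microglia held 1059 and 943 CPM of Trf, with a UMI in 95.5% of cells in each library. With free RNA subtracted, at shares of 0.629% and 4.2% of the members' UMIs estimated from microglia markers, the ratio was 0.519. These shares include mixed barcodes, without which the microglia markers in 60TM fall from 326 to 63.6 CPM and in WT from 47.5 to 30.2. The subtraction can therefore take away too much in 60TM, for this and every gene given with free RNA subtracted.

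**Figure D3:**
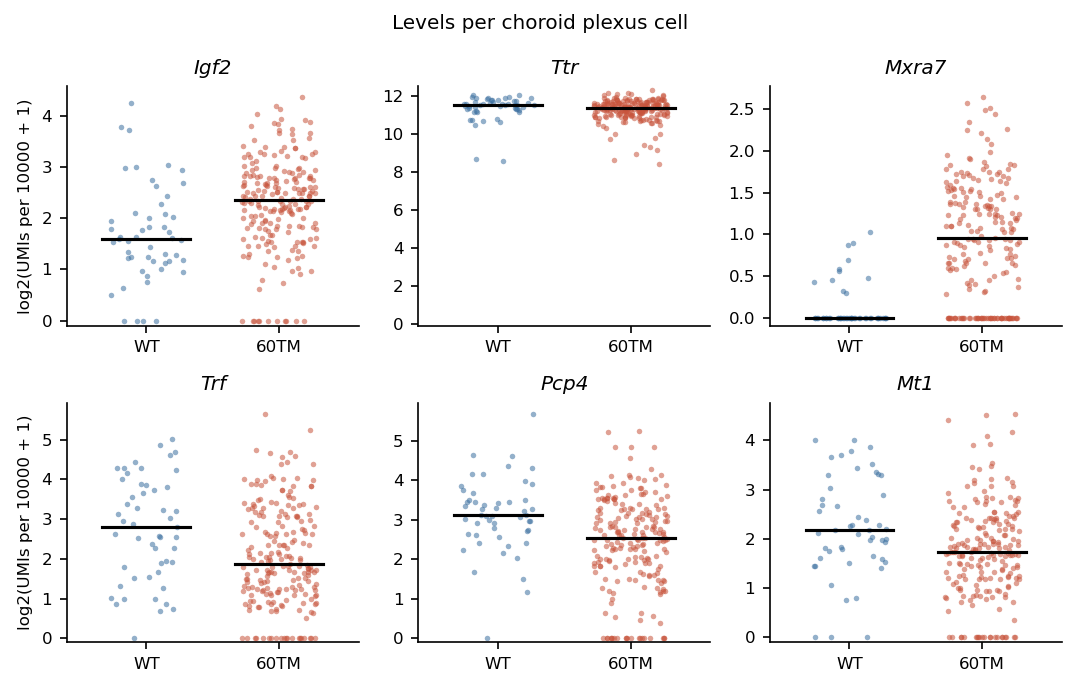
Levels per choroid plexus cell without mixed barcodes (51 WT and 214 60TM cells) for Igf2, Ttr, Mxra7, Trf, Pcp4 and Mt1, as log2 of UMIs per 10000 plus 1. Each point is a cell and each line a median over cells; the cells of both libraries overlap for all 6 genes, and the WT median of Mxra7 is 0.

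Receptors, transcription factors and junction genes were measured as further groups. Prlr, the prolactin receptor, stood at 512 and 709 CPM (ratio 1.38, 1.26 to 1.52). Klotho and fibroblast growth factor signalling had 2 of 12 measured genes past 1.5-fold upward and 0 downward, with a median log2 ratio of 0.22. The list includes Kl, a rule gene. Of the 12, 1 held 3 or fewer UMIs in WT, the immediate early gene Egr1, with 1 there and 108 in 60TM. Without mixed barcodes the counts were 2 and 0 of 9, with 0 intervals above 1, and the median was 0.33. Transcription factors had 5 upward and 1 downward of 19, with a median of 0.10. Nfix and Nfib, nuclear factor I genes, had ratios of 1.63 (1.34 to 1.99) and 1.69 (1.32 to 2.2), and Six3, a homeobox gene of the forebrain, 1.51 (1.09 to 2.14). Otx2, Msx1 and Sox9 stood at 1.1 (0.95 to 1.28), 0.999 (0.883 to 1.13) and 1.07 (0.923 to 1.25). Junction and keratin genes had 5 upward and 1 downward of 20, with a median of 0.06, and 3 of the 20 held 3 or fewer UMIs in WT. Cldn1, a tight junction claudin, stood at 1.84 (1.12 to 3.23), Cldn2, a claudin of leaky epithelia, at 0.978 (0.764 to 1.27), and Tjp3, a junction scaffold, at 0.64 (0.472 to 0.881).

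Choroid plexus cells carry tufts of cilia and express part of the motile cilium programme. Of 22 measured genes, 16 had a log2 ratio below 0, against 3740 of 10564 among all genes, 1 passed 1.5-fold upward and 1 downward, and the median was −0.30, or −0.13 without mixed barcodes. The same genes had a median of −0.98 in all other cells. Rsph1, a radial spoke protein, stood at 260.4 and 181 CPM (ratio 0.696, 0.608 to 0.798), and Dynlrb2, a dynein light chain, at 187 and 134 CPM (ratio 0.717, 0.612 to 0.843). Foxj1, which drives the motile cilium programme, had a UMI in 58.2% and 53.8% of members. Dnah6, a dynein heavy chain, had 7 UMIs in WT and 83 in 60TM (ratio 2.22, 1.03 to 5.69), and a ratio of 0.187 when 2 rule genes were enough. Ependymal cells numbered 26 in WT and 14 in 60TM, and Rsph1 in all cells outside the members stood at 52 and 11.8 CPM. Within these few ependymal cells Rsph1 stood at 755 and 989 CPM, Foxj1 at 382 and 562 and Dnah6 at 191 and 310. Dynlrb2 stood at 799 and 776 CPM there. The median over all other cells thus depends on the number of ependymal cells as well as on levels within them. The part of ependymal cells in the members' values was not tested beyond the low sum of ependymal markers.

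Nuclear and mitochondrial genes of the respiratory chain differed in opposite directions. Of 37 nuclear genes for oxidative phosphorylation, 36 had a ratio below 1, against 3740 of 10564 among all genes, none passed 1.5-fold, and the median log2 ratio was −0.26, or −0.22 without mixed barcodes. In all other cells the same genes had a median of 0.04. Cox8a, a cytochrome c oxidase subunit, stood at 4714 and 3915 CPM (ratio 0.83, 0.805 to 0.857), and Atp5g1, of ATP synthase, at 3056 and 2488 CPM (ratio 0.814, 0.784 to 0.846). The genes with the printed NRF1 letters, Cox6a1 and Atp5k, had ratios of 0.862 (0.803 to 0.927) and 0.836 (0.784 to 0.893). The single gene above 1 was Ndufb9, at 1.03 (0.95 to 1.12), and the lowest was Ndufs6, at 0.75 (0.679 to 0.83). Both encode subunits of complex I.

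Of the 13 protein-coding genes of the mitochondrial genome, 12 had a ratio above 1, against 6824 of 10564 among all genes. The median log2 ratio was 0.36, or 0.41 without mixed barcodes, and 0.12 in all other cells. The 2 genes past 1.5-fold were mt-Nd4l, at 639.7 and 1078 CPM (ratio 1.69, 1.56 to 1.83), and mt-Atp8, at 106 and 173 CPM (ratio 1.64, 1.35 to 2.02). The abundant mt-Co1 and mt-Co3, subunits of cytochrome c oxidase, stood at 1.3 (1.26 to 1.34) and 1.25 (1.22 to 1.28). In all other cells mt-Nd4l had a ratio of 1.56 and mt-Co1 of 1.06. The gene below 1 was mt-Nd6, at 0.937. mt-Nd4l and mt-Atp8 overlap mt-Nd4 and mt-Atp6 on the mitochondrial genome, so how reads were split between neighbours is uncertain.

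Interferon response genes had 5 of 13 measured members past 1.5-fold upward and 0 downward, with a median log2 ratio of 0.34 over all members. Over all 10564 genes, 28.2% passed upward and 4.95% downward. Of the 13, 4 held 3 or fewer UMIs in WT and reached the 20-UMI minimum mainly through 60TM. The count is therefore no support for a direction. Without mixed barcodes the counts were 3 and 0 of 9 and the median 0.15. In all other cells the median was 1.06. Bst2, which tethers viruses to the membrane, stood at 117 and 175 CPM (ratio 1.5, 1.24 to 1.82), Ifitm3, which restricts viral entry, had a ratio of 1.74 (1.3 to 2.36) and Ifi27l2a of 1.93 (1.4 to 2.75). In all other cells these 3 had ratios of 2.78, 2.28 and 6.63. Ifi27, another interferon-induced gene, stood at 1050.3 and 952 CPM (ratio 0.906, 0.849 to 0.968). The difference between these cells and the rest was not tested.

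Class I antigen presentation had 7 of 15 genes past 1.5-fold upward and 0 downward, with a median log2 ratio of 0.39. Of the 15, 2 held 3 or fewer UMIs in WT. Without mixed barcodes the counts were 5 and 0 of 13 and the median 0.29. B2m, the light chain of class I molecules, stood at 1.33 (1.07 to 1.67) and, without mixed barcodes, at 1.13 (0.893 to 1.43). Tap2, a peptide transporter, and Pdia3, a chaperone of the loading complex, stood at 2.27 (1.15 to 5.09) and 1.75 (1.52 to 2.01). Of 9 class II genes 3 were measured, and Ctss, a protease of microglia, had a ratio of 8.1 over all members and 1.88 (0.751 to 6.06) without mixed barcodes.

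Acute phase genes and targets of Stat3 were hardly measurable here. Of 28 listed, 10 reached 20 UMIs and 6 of these passed 1.5-fold upward, and without mixed barcodes 1 of 6 did. Among the 10, 3 held 3 or fewer UMIs in WT. Lcn2, which encodes lipocalin 2, had 0 UMIs in WT and 20 in 15 members of 60TM, while all other cells held 0.94 and 296 CPM. Chemokine, adhesion and NF-kB genes had 5 upward and 1 downward of 11, with a median of 0.38, and 2 of the 11 held 3 or fewer UMIs in WT. Nfkbia, an inhibitor that NF-kB induces, had 20 UMIs in WT and 239 in 60TM (ratio 2.24, 1.42 to 3.73), and Tnfrsf1a, a receptor for tumour necrosis factor, 6 and 97 UMIs (ratio 3.03, 1.34 to 8.45). Vcam1, an adhesion molecule, stood at 1.04 (0.869 to 1.25), and at a ratio of 2.58 in all other cells.

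Immediate early genes, which tissue dissociation can induce, had 14 of 17 measured members past 1.5-fold upward and 0 downward, with a median log2 ratio of 1.32. Of the 17, 11 held 3 or fewer UMIs in WT and reached the 20-UMI minimum through 60TM, against 1401 of all 10564 genes, so their count and median are no support for a direction. For these genes without mixed barcodes the counts were 7 and 0 of 12 and the median 0.38. Fos had 0 UMIs in WT and 191 in 30 cells of 60TM, at least 11.9-fold higher, and 22 were left without mixed barcodes, at least 1.47-fold. A Fos UMI was seen in 43.9% of WT and 58.3% of 60TM microglia. Jun had 9 and 322 UMIs (ratio 6.7, 3.49 to 14.8), and 4 and 25 without mixed barcodes (ratio 1.25, 0.432 to 4.94), and the ratio was 0.577 without members with 3 markers of another class. Jund stood at 1.17 (1.03 to 1.34) and 1.02 (0.882 to 1.18).

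Stress and metabolic lists had medians between −0.08 and 0.34. Chaperones had 0 of 16 genes past 1.5-fold upward and 1 downward, with a median log2 ratio of 0.15. Cryab, a small heat shock protein found in the aggregates of Alexander disease, stood at 1099.8 and 812 CPM (ratio 0.739, 0.692 to 0.789), and at 1747 and 907 CPM in all other cells. The integrated stress response had 7 upward and 1 downward of 17, with a median of 0.34. Of the 17, 5 held 3 or fewer UMIs in WT and reached the 20-UMI minimum mainly through 60TM, so the count supports no direction. Without mixed barcodes the counts were 5 and 1 of 14 and the median 0.26. Xbp1 and Herpud1, of the response to unfolded proteins, had ratios of 1.6 (1.09 to 2.42) and 1.49 (1.08 to 2.1). Targets of Nrf2, an antioxidant factor, had 2 upward and 1 downward of 21, with a median of −0.08, against 0.38 in all other cells. Glucocorticoid and clock genes had 9 upward and 1 downward of 20, with a median of 0.32, and 3 of the 20 held 3 or fewer UMIs in WT. Without mixed barcodes the counts were 6 and 2 of 18 and the median 0.43. Nr3c1, the glucocorticoid receptor, had 18 UMIs in WT and 231 in 60TM (ratio 2.4, 1.49 to 4.13). Cholesterol synthesis had 2 upward and 0 downward of 22, with a median of −0.01.

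Metallothionein genes had ratios below 1 here and above 1 in all other cells. Over all members Mt1, which binds zinc and copper, stood at 594 and 513 CPM (ratio 0.864, 0.792 to 0.944). Mt2 had a ratio of 0.92 (0.67 to 1.29), an interval that includes 1, and Mt3 of 0.872 (0.838 to 0.908). Without mixed barcodes the ratios were 0.598 (0.541 to 0.662), 0.615 (0.394 to 0.988) and 0.879 (0.843 to 0.917). In all other cells, whose mix of classes differs between libraries, the 3 genes had ratios of 2.61, 2.61 and 1.98. Mt1 was seen in 67.8% and 70.4% of microglia. With free RNA subtracted, at shares that include mixed barcodes, its ratio over all members was 0.541. The 14 measured genes of metal and iron handling had 2 upward and 1 downward, with a median log2 ratio of 0.00, and Fth1 and Ftl1, the ferritin chains, stood at 0.90 and 0.923.

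**Figure D4:**
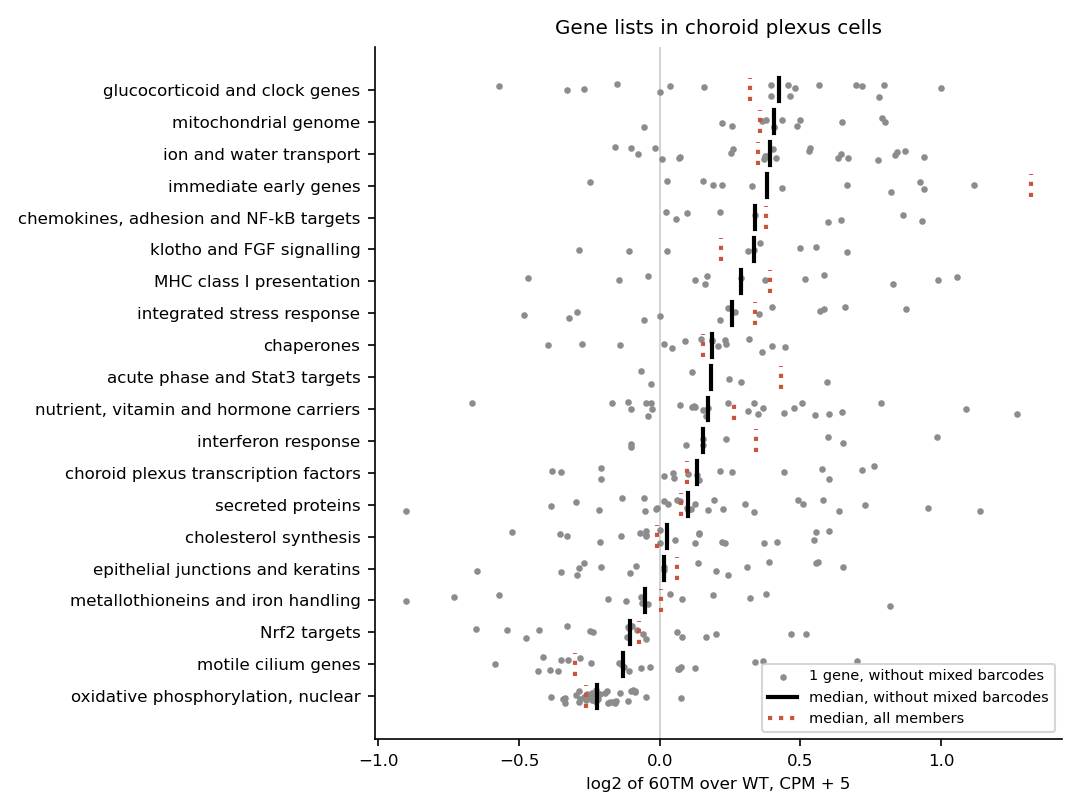
log2 ratio of 60TM over WT (horizontal axis, CPM + 5) for members of 20 gene lists in choroid plexus cells, lists ordered by median. Grey points are genes without mixed barcodes, black lines their medians and red dotted lines the medians over all members; the median of immediate early genes is 1.32 over all members and 0.38 without mixed barcodes.

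In these cells the ratio of a gene was related to the length of its transcript. Without mixed barcodes, the Spearman correlation of log2 ratio and longest GENCODE M21 transcript was 0.46 across 4848 genes of the same 2 libraries, given as a description because genes are not independent replicates. With the genes in 4 bins of equal size by length, the median log2 ratio was −0.13 in the shortest, 0.00 and 0.11 in the middle bins and 0.30 in the longest. Over all other cells the correlation was −0.02. In 9 other classes it ran from −0.28 in endothelial cells to 0.10 in oligodendrocytes. Within 4 bins of genes by UMI count it lay between 0.35 and 0.47.

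The same counts were also taken cell by cell. The shortest bin held a median of 49.8% of the UMIs outside Ttr in WT cells and 47.3% in 60TM cells, and the longest bin 8.66% and 9.92%. The middle of the cells, from the lower to the upper quartile, spanned 7.84% to 9.51% in WT and 8.58% to 11.1% in 60TM for the longest bin, so the cells overlapped widely. In cells under the median depth of their library the longest bin held 8.9% and 9.59%, and in deeper cells 8.31% and 10.4%. Nuclear respiratory chain genes are short, with a median of 927 bases, and their median log2 ratio relative to their length bins was −0.13. For ion and water transport genes, with a median of 3697.5 bases, it was 0.23, and for the mitochondrial genome 0.52. The part of transcript length in the differences between genotypes was not tested beyond these values.

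**Figure D5:**
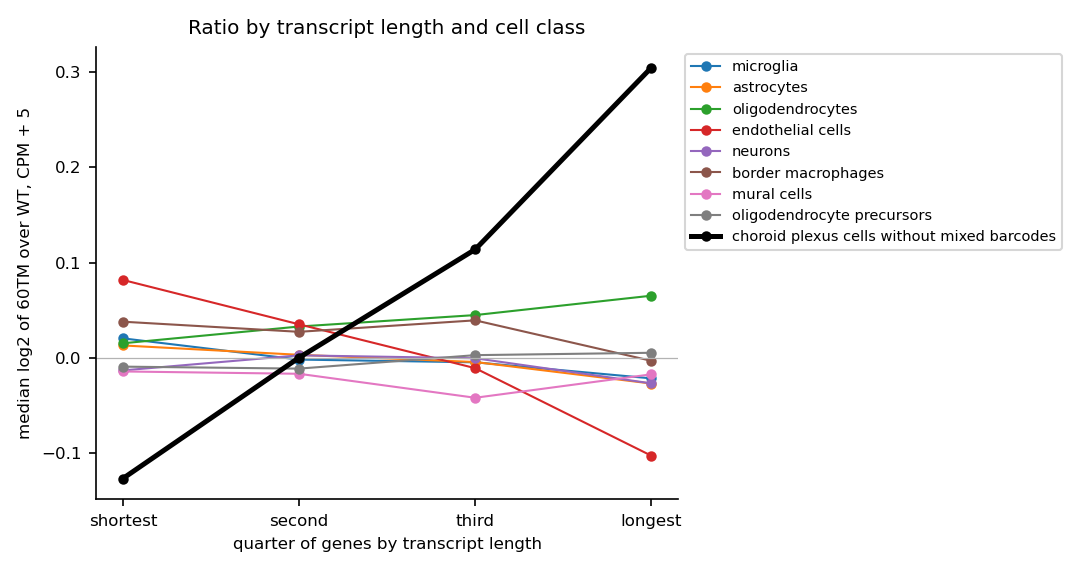
Median log2 ratio of 60TM over WT (vertical axis, CPM + 5) in 4 bins of genes by transcript length (horizontal axis), in choroid plexus cells without mixed barcodes (thick black line) and in the other cell classes with at least 1000 measured genes. The choroid plexus line runs from −0.13 in the shortest bin to 0.30 in the longest, and the endothelial line from 0.08 to −0.10.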

How the data were processed

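UMI counts were deposited for hippocampal cells of WT and 60TM mice, 1 library each from 3 pooled mice aged 7 weeks. The deposited matrices hold raw counts per gene and barcode, unnormalized. Per the submitters' processing notes, Cell Ranger 5.0.0 and build GRCm38 were used, and the sources do not state how intronic reads were treated. The deposited tables of genes and barcodes carry no measurement (unit: other). Average depth per the labels was 63967 (WT) and 54044 (60TM) reads per cell, and the libraries hold 63532407 UMIs in 6861 barcodes and 80684152 in 8733.

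UMIs were summed over members with Python 3.11.15, scipy 1.17.1 and scanpy 1.11.5. Ratios of CPM have exact conditional binomial intervals and shares exact Clopper-Pearson intervals, both at 95%. Where a gene has 0 UMIs in 1 library, a fold given as "at least" sets that count to a floor of 3 UMIs. Counts of genes past a fold use no floor, so a gene with 0 UMIs in 1 library counts as past it. Log2 ratios use CPM + 5. Gene counts use genes with 100 UMIs or more, and lists members with 20 or more. With 1 library per genotype there is no test. The intervals were tested on simulated counts. Reference cells of another class carry at least 4 of its 6 markers and no rule gene. Doublets were left in, and removing the barcodes with the highest Scrublet scores (377 in WT, 610 in 60TM) was an alternative.

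The members, the 22 gene lists and the markers were chosen with earlier results of these data known. Named genes are, per direction, the 12 furthest from 1 by the nearer interval bound (leaving out mitochondrial, ribosomal, haemoglobin and unnamed predicted genes), the rule genes, Gfap, and from each list the 4 most abundant members and those past 1.5-fold whose interval leaves out 1. The same rule was applied without mixed barcodes. Besides marker and position genes, Atp5k, Cox6a1, Foxj1, Lcn2, Mt2, Ndufb9, Ndufs6, Slc15a2 and mt-Nd6 were chosen after their values were seen. Alternatives were other marker numbers, filters and scalings, thinning to 2000 UMIs per cell, and free RNA subtraction. Some members of the lists are not reported here.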

Additional observations from a re-analysis of the deposited data

Results flagged for a closer look

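Ttr was found in most 60TM barcodes outside the choroid plexus cells, a signal in barcodes that the comparison does not use. A Ttr UMI was present in 91.6% of the other 60TM barcodes and in 20.7% of the other WT barcodes. The level over those barcodes was 637 CPM in 60TM and 117 CPM in WT, and the members hold 2.95% and 0.855% of passing barcodes. In the other direction, microglia markers in the members would correspond to 4.2% of free RNA in 60TM and 0.629% in WT, mixed barcodes included.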

How the results depend on the processing

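No paired analysis was possible because each genotype has 1 library, and for the same reason no replicate could be left out. The ratio of choroid cell shares lay between 2.66 and 3.56 in 6 alternatives. The count of genes past 2-fold upward, 349 in the report, was 200 with at least 2 rule genes seen, 132 without barcodes scored as doublets, 75 without members with 3 markers of another class, 159 without mixed barcodes, 228 with free RNA subtracted, 821 from 50 UMIs, 215 from a mean of 15 CPM, an alternative added after seeing the data, and 8 of 734 genes after thinning. The count past 2-fold downward, 13 in the report, was 548, 26, 4 and 8 under the first 4 of these, 34 from 50 UMIs, 21 from a mean of 15 CPM, 0 after thinning, 22 with median-ratio size factors and 20 as a mean over cells. Of the genes past 2-fold, 96.4% were higher in the report, 26.7% with at least 2 rule genes and 83.5% without doublets. The median-ratio size factor shifts every gene by 0.10 on the log2 scale.

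With at least 2 rule genes, the ratio was 0.94 for Bmp6, 0.187 for Dnah6, 0.481 for Dst, 0.559 for Dync2h1, 0.61 for Irf2bpl, 0.168 for Lrp8, 0.645 for Slc30a1 and 0.55 for Zbtb20, all above 1 in the report's set. Lrp8 was at 0.908 after thinning. Without members with 3 markers of another class, Btg2 was at 0.996, Jun at 0.577, Socs3 at 0.865 and the median log2 ratio of immediate early genes at −0.0040. Car4 was at 0.836 without doublets and 0.80 without mixed barcodes, and Socs3 at 0.90 without mixed barcodes and 0.879 with free RNA subtracted. For these reversals the cause was not tested. The 1052042 UMIs of the WT members limit genes of low level.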

Other observations

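Markers of fibroblasts, which lie in the stroma of the plexus, were low in the members. Col1a1, Col1a2, Dcn, Lum, Col3a1 and Dpt summed to 5.7 CPM in WT and 20.8 CPM in 60TM, with 5 and 2 of the 6 at 0. A further 3 WT and 15 60TM barcodes carried at least 3 rule genes but failed the filters on genes or mitochondrial UMIs.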
